A study of Homo sapiens with 17 samples.

Results

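The keratin and claudin genes build the cytoskeleton and the cell contacts of epithelia, and their messenger RNA levels were followed here in colon cancer cells given toyocamycin. Members were taken as every protein-coding gene of the count table whose symbol is KRT or CLDN followed by a number, with the keratin-associated proteins left out. This gave 78 of the 19141 genes counted, of which 55 were keratins (29 of type I and 26 of type II) and 23 were claudins. Members were then classed by their DMSO libraries alone. A member counted as expressed with at least 10 counts in every DMSO library (19 members, 11 keratins and 8 claudins) and as silent with at most 2 counts in every DMSO library (35 members, 25 keratins and 10 claudins), and the other 24 were intermediate.

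YB5 cells, a derivative of the SW48 human colon cancer line with a single methylation-silenced GFP reporter, received DMSO (the vehicle) or 250 nM toyocamycin, an adenosine analog made by Streptomyces. PolyA-selected RNA was sequenced from both ends at 2, 10, 24, 48 and 72 h by the labels. There were 8 DMSO libraries (2 after 2 h, 1 each at 10, 24 and 48 h, 3 after 72 h) and 9 toyocamycin libraries (2 after 2 h, 2 after 10 h, 1 each at 24 and 48 h, 3 after 72 h). All libraries carry the same reporter insertion and come from 1 line, so p-values measure the spread between cultures of that line.

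Keratins are intermediate filament proteins that assemble as pairs of a type I and a type II chain. The pair of KRT8 and KRT18, with KRT19 and KRT20, is typical of the simple epithelium of the gut, the pair of KRT5 and KRT14 of the basal layer of stratified epithelia, and hair keratins of the hair shaft. Claudins are membrane proteins with 4 transmembrane passes that form the strands of tight junctions, where some seal the space between cells and others form pores for ions or water.

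Totals ran from 8735465 to 22121364 counted reads per library, with the lowest in replicate 2 of toyocamycin at 10 h. That library also held a thin spread of reads over genes that were otherwise silent, with at least 3 counts in 27 of the 35 silent members (77.1%) and in 78.6% of all 4991 genes silent by the same rule. In the other toyocamycin library of 10 h these shares were 8.57% and 6.21%. Fold changes printed for 10 h are therefore given with and without that library. The other toyocamycin library of 10 h is of batch 1, and the 1 DMSO library of 10 h is of batch 2. Without replicate 2, treatment and batch cannot be told apart at 10 h. Of 11 gut epithelial markers, EPCAM, HNF4A and CDX2 stood at 272, 81.2 and 69.6 CPM in DMSO at 72 h, VIL1, CDH17, LGR5, PHGR1 and CEACAM5 between 1.03 and 7.38, GPA33 and LGALS4 below these, and CDX1 had 0 counts in every DMSO library. Of 9 markers of stratified epithelium, SFN, ITGB4, COL17A1 and S100A2 stood between 267 and 1639 CPM and TRIM29 at 17.98, while TP63, the defining regulator of that layer, PKP1, DSG3 and S100A7 had at most 8 counts in any DMSO library. Levels are given as CPM (counts of a gene scaled to a common library total) on library sizes scaled by the trimmed mean of M-values (TMM), and fold changes as log2 of toyocamycin over DMSO ± standard error.

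Sequences before the start site are shown for the members whose opposite behaviour is described below, from RefSeq on GRCh38.p14, which had an entry for 52 of the 78 members. The first 3 are an expressed basal keratin and an expressed claudin that were lower on toyocamycin at 72 h and a claudin that was higher, and the last 3 are neighbouring type I keratins on chromosome 17. Each is the 250 bases before the start, and capitals mark TATAAA (the TATA box) or TGANTCA (the AP-1 motif), searched on both strands.
KRT5 (chr12:52520395-52520644, minus strand): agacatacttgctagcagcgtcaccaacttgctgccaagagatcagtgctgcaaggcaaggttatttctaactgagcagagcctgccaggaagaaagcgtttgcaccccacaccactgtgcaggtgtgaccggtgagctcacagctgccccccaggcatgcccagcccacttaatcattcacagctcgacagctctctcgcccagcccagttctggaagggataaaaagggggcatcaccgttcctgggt
CLDN4 (chr7:73830746-73830995, plus strand): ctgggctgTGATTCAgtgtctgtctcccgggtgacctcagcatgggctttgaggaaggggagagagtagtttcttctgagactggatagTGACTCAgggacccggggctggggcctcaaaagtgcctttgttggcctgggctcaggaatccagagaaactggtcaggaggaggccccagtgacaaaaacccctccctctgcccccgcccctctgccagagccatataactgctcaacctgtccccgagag
CLDN6 (chr16:3018184-3018433, minus strand): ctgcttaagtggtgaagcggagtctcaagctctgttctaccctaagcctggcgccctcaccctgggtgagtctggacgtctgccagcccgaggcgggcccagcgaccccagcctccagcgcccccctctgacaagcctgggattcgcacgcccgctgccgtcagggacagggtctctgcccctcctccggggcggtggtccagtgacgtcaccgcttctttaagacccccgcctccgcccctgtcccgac
KRT10 (chr17:40822615-40822864, minus strand): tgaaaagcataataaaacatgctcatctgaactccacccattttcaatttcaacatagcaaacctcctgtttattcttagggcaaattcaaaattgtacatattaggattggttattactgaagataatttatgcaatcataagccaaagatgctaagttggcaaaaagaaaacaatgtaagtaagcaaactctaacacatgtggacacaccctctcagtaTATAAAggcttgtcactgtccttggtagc
KRT28 (chr17:40799960-40800209, minus strand): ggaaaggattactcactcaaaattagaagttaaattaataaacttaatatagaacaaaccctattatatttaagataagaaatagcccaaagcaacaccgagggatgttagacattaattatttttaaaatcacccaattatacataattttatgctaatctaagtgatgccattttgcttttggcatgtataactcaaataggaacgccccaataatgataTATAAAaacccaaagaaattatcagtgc
KRT27 (chr17:40782551-40782800, minus strand): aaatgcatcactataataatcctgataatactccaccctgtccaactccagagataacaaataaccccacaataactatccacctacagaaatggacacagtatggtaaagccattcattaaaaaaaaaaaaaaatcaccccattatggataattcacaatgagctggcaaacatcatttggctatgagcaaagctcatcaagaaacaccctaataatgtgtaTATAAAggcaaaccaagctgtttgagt

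KRT10, KRT28 and KRT27 carried TATAAA at 29, 28 and 27 bases before the start, although KRT10 was expressed in DMSO and the other two were silent. TATAAA stood at any position in 18 of the 29 silent members with an entry, in 3 of 12 intermediate members and in 1 of 11 expressed members. By family it was in 21 of 34 keratins and in 1 of 18 claudins with an entry. Among keratins it was in 17 of 21 silent and 1 of 4 expressed ones, and the other expressed keratins, of 11, had no entry. The parts of family and of missing entries in the difference between classes were not tested. Of all 35097 promoter windows of this length 10.7% held it, against 16.0% of the 4723 windows of genes silent in DMSO and 48.6% of the 37 windows of silent members. With the first base 25 to 35 bases before the start, it was found in 13 of the windows of silent members, all of keratins (35.1%), in 7.05% of the windows of genes silent in DMSO and in 2.64% of all windows. TGANTCA was in the windows of 4 members (CLDN2, CLDN4, CLDN15 and CLDN16), 2 times in CLDN4, and in 6.57% of all windows. CACGTG (the E-box) was in the windows of 2 members, both silent, and in 6.34% of all windows. The CLDN6 window held 18 CpG dinucleotides, against a median of 2 over the 64 member windows and 11 over all windows. The median was 21 over windows of genes expressed in DMSO. Windows of other claudins held more than that of CLDN6, among them CLDN1 (28), CLDN3 (19) and silent CLDN11 (29). These matches describe letters in RefSeq windows, and whether the cells start transcription there is not known.

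Members expressed in DMSO did not pass the test at 2 h and were mostly lower at 72 h. At 2 h, 0 of the 19 expressed members were called at an adjusted p under 0.1 in edgeR's quasi-likelihood test (2 at an unadjusted p under 0.05), while 10.7% of all expressed genes were lower and 0.235% were higher. The replicate numbers mark batches at 2 h, and with the replicate block KRT10 was higher (0.46, edgeR adjusted p = 0.091) and KRT80 lower (-0.58, edgeR adjusted p = 0.052). Of the 30 members that passed the filter on low counts through a DMSO library, 0 were called at 2 h without the block, against 0.518% higher and 8.42% lower over all genes tested. At 72 h, 13 of the 19 were lower and 5 were higher, against 53.7% and 34.6% of the 11080 expressed genes. Their median log2 fold change was -2.94, against -0.54 over the expressed genes and 0.18 over all genes tested. All keratins together took 0.697% to 0.808% of the counts in DMSO libraries of 72 h and 0.0460% to 0.0497% in toyocamycin libraries of 72 h. The claudins together took 0.0475% to 0.0537% and 0.0416% to 0.0452%. CLDN6 alone gave 9613 claudin counts in the toyocamycin libraries of 72 h and 17 in the DMSO libraries. In bulk RNA, fewer cells of one kind and less RNA per cell cannot be told apart.

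Of all 78 members, 36 passed the filter on low counts in the fit of 72 h, namely all 19 expressed, 15 of the 24 intermediate and 2 of the 35 silent members, while the other 42 members were too low to test. CLDN9, CLDN19, KRT3, KRT28, KRT74 and KRT82 passed only through toyocamycin libraries, a filter that favours a difference, so their values are a description with no test. Of the other 30, 8 were higher and 18 lower at 72 h, against 47.0% and 41.9% of all genes tested. That background includes genes that passed only through toyocamycin libraries, here and wherever these 30 are set beside all genes tested. Over expressed genes the shares at 72 h were 34.6% higher and 53.7% lower. KRT4 (-0.10), KRT83 (0.48) and CLDN16 (0.72), all intermediate, were tested and not called.

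Between these times the balance of calls was different. Of the 19 expressed members, 11 were higher and 3 lower at 10 h (background over expressed genes 21.1% and 36.3%), and 12 and 2 without replicate 2 of toyocamycin. Of the 51 members tested at 10 h, 19 were higher and 3 lower (20.4% and 24.4% of all genes tested), but without that replicate 36 passed the filter, of which 20 were higher and 2 lower. At 24 h, 10 were higher and 4 lower (30.9% and 40.5% of expressed genes), and at 48 h, 7 were higher and 8 lower (30.1% and 46.0%). Over the 30 members that passed through a DMSO library the calls were 16 higher and 4 lower at 24 h (30.7% and 32.0% of all genes tested) and 12 and 10 at 48 h (39.2% and 35.5%). Of the 51 members tested at 10 h, 12 were silent and passed through toyocamycin libraries alone, a filter that favours a difference. So did some intermediate members, among them KRT36, KRT77, KRT78 and KRT82, with at most 4 counts in any DMSO library. The counts over all members tested at 10 h are therefore a description with no test. DMSO had 1 library at 10 h, and at 24 and 48 h each arm had 1 library. The spread there came from other groups, and no p is given for a single gene at 24 or 48 h. The DMSO library of 10 h is of batch 2, so without replicate 2 of toyocamycin the arms also differ in batch. Fold changes are on the TMM scale, and scaling on mitochondrially encoded genes instead shifted the median of all genes from 0.18 to -0.89 at 72 h and from 0 to -2.16 at 24 h.

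The 3 expressed simple epithelial keratins were higher on toyocamycin at 10 h and lower at 48 and 72 h. KRT8, the type II keratin of simple epithelia, was the member with the highest level per kilobase of exon in DMSO (mean of 370 CPM per kb over 8 libraries), followed by its partner KRT18 (218 CPM per kb). The length used is that of all annotated exons of a gene together. KRT8 (chr12:52897187-52949954, minus strand) stood at 2142 and 1820 CPM in DMSO after 2 h, 752 after 10 h, 926 after 24 h, 1822 after 48 h and 4269.9, 4689 and 3922 after 72 h. On toyocamycin it stood at 2423 and 2099 CPM after 2 h, 2850.3 and 2567 after 10 h, 1815 after 24 h, 667 after 48 h and 266, 256 and 280.4 after 72 h. The arms overlapped at 2 h (0.19 ± 0.16, edgeR adjusted p = 0.65) and were far apart at 72 h, with every toyocamycin library below every DMSO library (-3.97 ± 0.15, edgeR adjusted p = 2.9e-12). At 10 h toyocamycin libraries kept a level near that of 2 h while the DMSO library was low (1.85 ± 0.25, edgeR adjusted p = 4e-05, and 1.93 without replicate 2).

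KRT18 (chr12:52948871-52952906, plus strand), the type I partner, had the same order of arms. It had 1222, 1283 and 1139.9 CPM in DMSO and 38.6, 31.6 and 34.6 on toyocamycin at 72 h (-5.09 ± 0.15, edgeR adjusted p = 4.9e-13), from 461 and 428 and 487 and 548 at 2 h (0.22 ± 0.15, edgeR adjusted p = 0.57). The ratio of KRT8 to KRT18 counts was 3.44 to 4.88 in the 8 DMSO libraries and 6.89 to 8.11 in toyocamycin libraries of 72 h. KRT8 and KRT18 lie head to head and overlap on opposite strands in the annotation (GENCODE 44), and the strand setting of the counting is not given in the sources used here, so reads of the shared stretch cannot be assigned. KRT19 (chr17:41523617-41528308, minus strand), a small type I keratin of ducts and gut, had 216, 251 and 181 CPM in DMSO and 2.95, 4.45 and 2.69 on toyocamycin at 72 h (-5.97 ± 0.23, edgeR adjusted p = 3.4e-12), with overlapping arms at 2 h (0.35 ± 0.21, edgeR adjusted p = 0.51). Its higher level at 10 h was 0.74 on the log2 scale, 0.90 without replicate 2 and 0.55 without replicate 1, where the call was lost (edgeR adjusted p = 0.12).

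Of the other simple epithelial keratins, KRT7 was intermediate and rose from low levels. Its counts at 72 h were 8, 20 and 17 in DMSO and 22, 35 and 16 on toyocamycin (1.74 ± 0.45, edgeR adjusted p = 0.0022), and mitochondrial scaling ended that call (0.67, edgeR adjusted p = 0.31). KRT20, a marker of differentiated gut epithelium, was silent, with 0 or 1 counts in DMSO and 0 counts in each toyocamycin library of 72 h. KRT23 was intermediate and was not tested at 72 h.

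**Figure D1:**
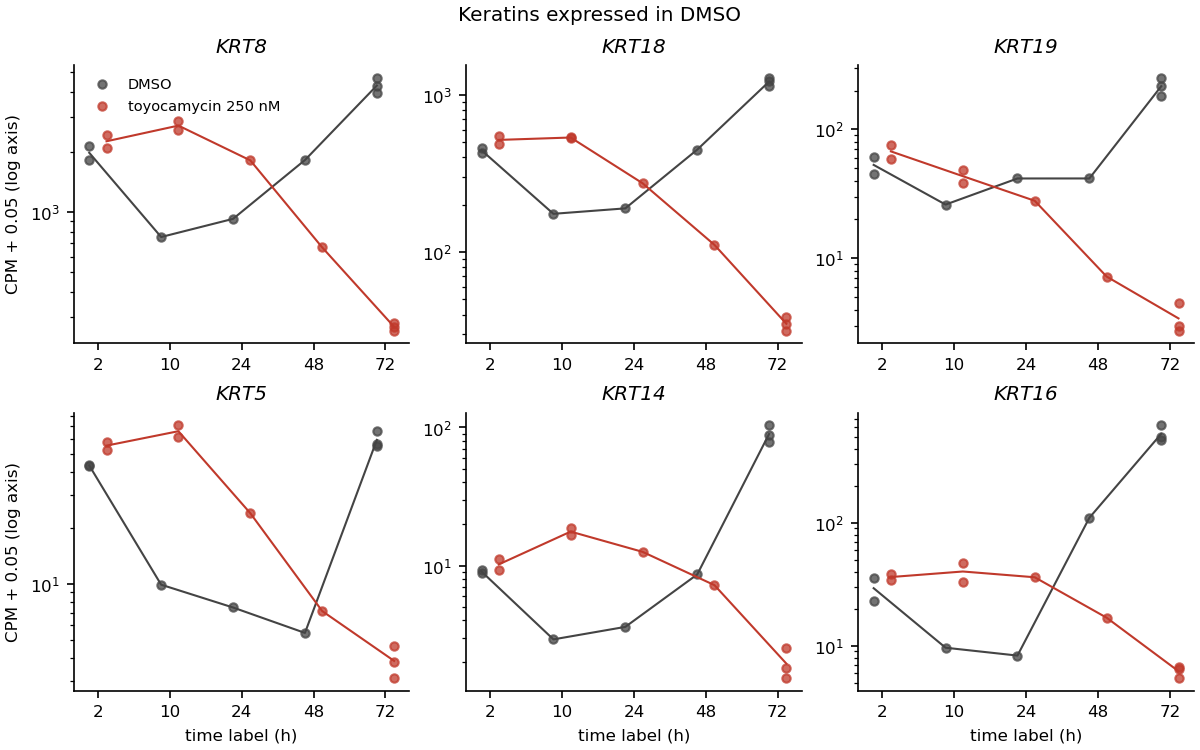
Levels of 6 keratins by the time label (h, labels equally spaced), as CPM + 0.05 on a log axis, with 1 point per library, DMSO in grey, 250 nM toyocamycin in red, and lines through the group means. The toyocamycin points lie below all DMSO points at 72 h in each panel, and above the DMSO point at 10 h.

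Of the 6 tested basal and stress keratins, 5 were lower and 1, KRT17, was higher at 72 h, where 41.9% of all genes tested were lower and 47.0% higher. KRT5 (chr12:52514575-52520530, minus strand), the basal type II keratin, had 56.0, 66.4 and 55.2 CPM in DMSO and 3.73, 3.06 and 4.61 on toyocamycin (-3.92 ± 0.18, edgeR adjusted p = 1.4e-11). Its DMSO level was 43.4 and 42.8 CPM after 2 h, 9.83 after 10 h, 7.4 after 24 h and 5.39 after 48 h, and its toyocamycin level was 52.3 and 58.0, 61.0 and 70.7, 23.9 and 7.08 at the same times. At 10 h the toyocamycin libraries were close to the levels of 2 h and the DMSO library was far below them (2.74 ± 0.27, edgeR adjusted p = 2.8e-06, and 2.64 without replicate 2).

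KRT14, the partner of KRT5, had 78.2, 103 and 87.6 CPM in DMSO and 2.46, 1.76 and 1.48 on toyocamycin at 72 h (-5.54 ± 0.21, edgeR adjusted p = 3.1e-12). KRT16 (chr17:41609778-41615899, minus strand), a keratin induced in wounded and hyperproliferative epidermis, had the largest negative difference between arms of the expressed members at 72 h. It had 472, 619 and 498 CPM in DMSO and 6.39, 6.67 and 5.39 on toyocamycin (-6.40 ± 0.21, edgeR adjusted p = 1e-12). For both genes each DMSO library lay above each toyocamycin library. KRT17, which is likewise induced in stressed epidermis, went the other way, with 35, 58 and 39 counts in DMSO and 64, 70 and 57 on toyocamycin (1.57 ± 0.26, edgeR adjusted p = 4.8e-05), a call that mitochondrial scaling ended (0.48, edgeR adjusted p = 0.37). KRT6A had 107, 128 and 109 counts in DMSO and 23, 19 and 8 on toyocamycin (-1.74 ± 0.38, edgeR adjusted p = 0.00058), and KRT15 had 73, 79 and 91 and 21, 5 and 4 (-1.96 ± 0.43, edgeR adjusted p = 0.00054, and -3.15 without replicate 1 of toyocamycin). KRT14, KRT16 and KRT17, and KRT6A, KRT6B and KRT6C, are near copies of one another, and reads that map to several places were not counted, so their levels are uncertain.

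Hair keratins split by gene. KRT81 (chr12:52285913-52291534, minus strand) had 8.79 and 8.12 CPM in DMSO after 2 h, 2.53 after 10 h, 2.34 after 24 h, 7.7 after 48 h and 189, 212 and 148 after 72 h. On toyocamycin it had 11.8 and 10.5, then 24.3 and 11.2, 46.1, 37.7 and 19.5, 24.9 and 25.5 CPM. It was therefore above DMSO at 10 h (2.82, and 3.26 without replicate 2), 24 and 48 h and below it at 72 h (-2.94 ± 0.16, edgeR adjusted p = 1.6e-10), where toyocamycin still exceeded its own level of 2 h (1.10 ± 0.19, edgeR adjusted p = 5.7e-05). KRT86 was higher at each of the last 4 times (2.06 at 10 h, and 2.50 without replicate 2), with 29.7, 30.0 and 21.4 CPM in DMSO and 68.0, 89.8 and 75.4 on toyocamycin at 72 h (1.56 ± 0.18, edgeR adjusted p = 6.7e-07), and mitochondrial scaling ended the call of 72 h (0.42, edgeR adjusted p = 0.37). KRT85 had 16, 38 and 18 counts in DMSO and 4, 1 and 2 on toyocamycin (-2.29 ± 0.62, edgeR adjusted p = 0.003, and -2.95 without replicate 1 of toyocamycin). KRT81, KRT83 and KRT86 are near copies, and KRT86 overlaps KRT81 on the other strand and KRT7 on its own, and the part of read assignment in their opposite signs was not tested. Among intermediate hair keratins KRT31 was lower (-2.03 ± 0.44, edgeR adjusted p = 0.00047, and -2.66 without replicate 3 of toyocamycin), and KRT82 had 8, 1 and 3 counts on toyocamycin against 0, 0 and 4, with overlapping arms.

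The keratins of upper and mucosal layers had no common direction. KRT10 (chr17:40818117-40822614, minus strand), the type I keratin of suprabasal epidermis, was higher on toyocamycin, with 26.2, 22.5 and 16.4 CPM in DMSO and 117, 101 and 99.2 on toyocamycin at 72 h (2.32 ± 0.17, edgeR adjusted p = 4.9e-09). Its toyocamycin libraries were above its DMSO libraries also at 2 h, by a difference that was called with the replicate block and not without it (0.45 ± 0.20, edgeR adjusted p = 0.3 without it). KRT80, a type II keratin of differentiating cells, was lower at 10 and 24 h, with 9.03 CPM in DMSO against 1.78 and 5.19 on toyocamycin after 10 h (-1.45 ± 0.39, edgeR adjusted p = 0.0092, and -2.33 without replicate 2), 9.54 against 1.38 after 24 h, and overlapping arms after 72 h (116, 131 and 105 against 88.0, 90.7 and 106 CPM, -0.27 ± 0.15, edgeR adjusted p = 0.11). It was the single expressed member not called at 72 h. KRT13, a keratin of mucosal layers, was intermediate in DMSO and had the largest negative difference between arms of any tested member at 72 h. It had 240, 285 and 298 counts in DMSO and 1 in each toyocamycin library (-6.96 ± 0.34, edgeR adjusted p = 3.9e-11). KRT9 was lower (-3.07 ± 0.63, edgeR adjusted p = 0.0003, and -4.07 without replicate 1 of toyocamycin). KRT3 had 6, 16 and 25 counts on toyocamycin against 9, 5 and 5 in DMSO, and KRT74, a root sheath keratin, had 4, 0 and 9 against 0, 1 and 1, with overlapping arms.

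Of the 8 expressed claudins 5 were lower and 3 higher at 72 h, shares near the 53.7% and 34.6% of all expressed genes. CLDN4 (chr7:73799542-73832690, plus strand), a sealing claudin of the gut, had 76.6 and 44.4 CPM in DMSO after 2 h, 25.2 after 10 h, 89.5 after 24 h, 232 after 48 h and 279, 314 and 249 after 72 h. On toyocamycin it had 53.8 and 42.0, then 68.8 and 32.7, 35.4, 11.9 and 18.5, 23.3 and 24.0 CPM. The arms overlapped after 2 h (-0.34 ± 0.23, edgeR adjusted p = 0.55) and were apart after 72 h (-3.64 ± 0.21, edgeR adjusted p = 1.8e-10), and CLDN4 was lowest on toyocamycin after 48 h. CLDN7 (chr17:7259903-7263983, minus strand), a basolateral claudin of gut epithelium, had 105, 107 and 101 CPM in DMSO and 10.6, 10.7 and 10.1 on toyocamycin at 72 h (-3.29 ± 0.14, edgeR adjusted p = 9.3e-12). It overlaps ELP5 on the other strand.

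CLDN3 (chr7:73768997-73770270, minus strand), a sealing claudin whose gene lies 29.3 kb from CLDN4 on chromosome 7, differed less between the arms. It had 23.2, 24.986 and 17.5 CPM in DMSO and 9.44, 8.15 and 8.26 on toyocamycin at 72 h (-1.31 ± 0.26, edgeR adjusted p = 0.00021), and at 48 h 29.8 and 18.3, where CLDN4 had 232 and 11.9. CLDN23 was lower at 72 h, with 99, 98 and 79 counts in DMSO and 3, 8 and 4 on toyocamycin at 72 h (-3.16 ± 0.48, edgeR adjusted p = 1.5e-05). CLDN2, a pore-forming claudin for cations and water, had 24, 40 and 36 counts in DMSO and 5, 7 and 5 on toyocamycin at 72 h (-1.51 ± 0.44, edgeR adjusted p = 0.0051). It overlaps MORC4 and RIPPLY1 on the other strand.

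CLDN1, CLDN15 and CLDN12 were higher at 72 h. CLDN1 (chr3:190305707-190322446, minus strand), a sealing claudin, had 25.7, 25.2 and 28.6 CPM in DMSO and 146, 144 and 127 on toyocamycin at 72 h (2.42 ± 0.15, edgeR adjusted p = 4.7e-10). At 2 h it had 7.28 and 10.8 CPM in DMSO and 11.3 and 10.997 on toyocamycin (0.31 ± 0.19, edgeR adjusted p = 0.51). CLDN15 (chr7:101232092-101238820, minus strand), a pore-forming claudin of the gut, was higher on toyocamycin at each later time, at 20.3 CPM after 24 h, 43.4 after 48 h and 55.0, 73.6 and 70.3 after 72 h, against 7.13, 7.46 and 4.06, 3.2 and 4.29 in DMSO (4.14 ± 0.22, edgeR adjusted p = 8.1e-11). At 10 h its difference was 0.93, 1.27 without replicate 2 and 0.40 without replicate 1, where the call was lost (edgeR adjusted p = 0.40). CLDN12 had 13.3, 12.1 and 16.9 CPM in DMSO and 19.9, 18.3 and 19.4 on toyocamycin at 72 h, and its difference was small (0.47 ± 0.17, edgeR adjusted p = 0.017) and turned negative with library size alone (-0.13) and with mitochondrial scaling (-0.57). CLDN12 overlaps other genes on its own strand.

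CLDN6 (chr16:3014712-3020071, minus strand), a claudin of embryonic epithelia, was intermediate in DMSO and had the largest difference among the members that passed through a DMSO library. Its counts in DMSO were 7 and 10 after 2 h, 15 after 10 h, 16 after 24 h, 36 after 48 h and 11, 2 and 4 after 72 h. On toyocamycin they were 24 and 5, 24 and 7, 45, 596 and 2672, 3343 and 3598. At 72 h the arms were apart in every library (10.13 ± 0.35, edgeR adjusted p = 1.5e-12, and 11.07 without replicate 1 of DMSO). At 170 CPM per kb CLDN6 was the member with the highest level per kilobase in toyocamycin libraries of 72 h, above KRT10 (48.9) and KRT8 (38.9). The order of KRT10 and KRT8 depends on the length used. In CPM the means there were 295 for CLDN6, 268 for KRT8 and 106 for KRT10. The neighbour of CLDN6, CLDN9, 207 bases away on the opposite strand, had 2, 4 and 2 counts in DMSO and 63, 68 and 82 on toyocamycin at 72 h. CLDN9 had at most 8 counts in any DMSO library, so these values are given with no test, and CLDN6 overlaps TNFRSF12A on the other strand.

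**Figure D2:**
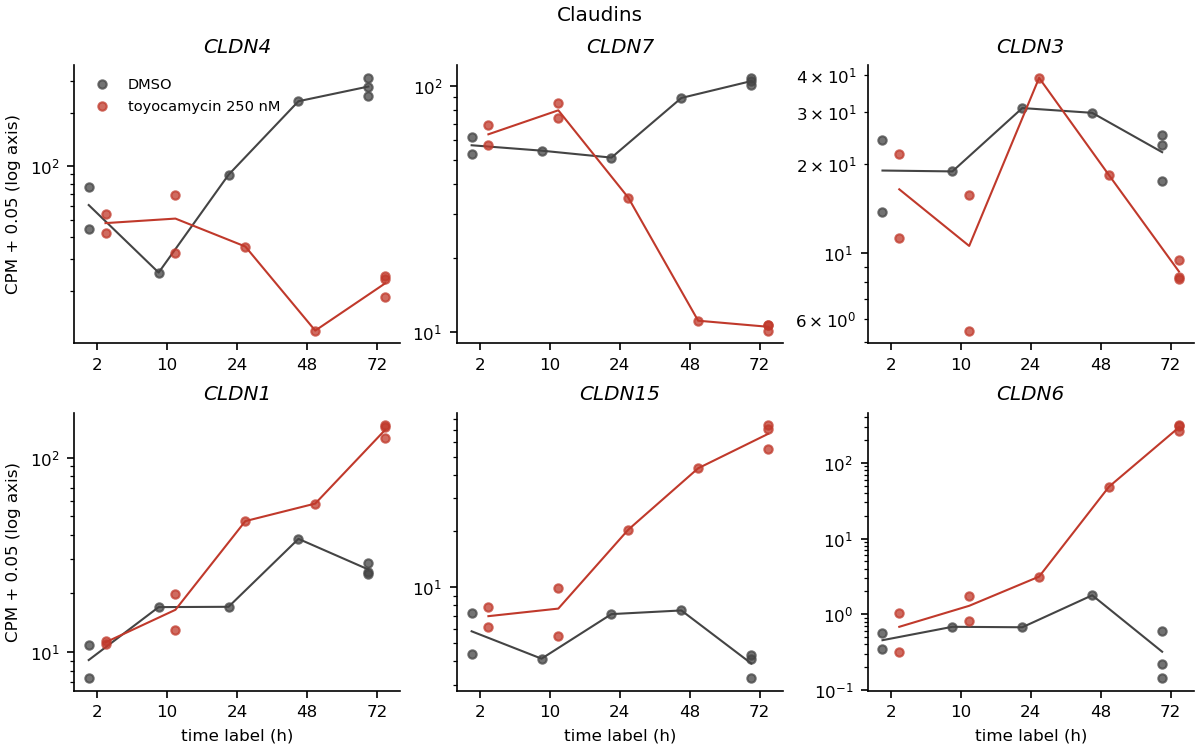
Levels of 6 claudins by the time label (h, labels equally spaced), as CPM + 0.05 on a log axis, with 1 point per library, DMSO in grey, 250 nM toyocamycin in red, and lines through the group means. CLDN4, CLDN7 and CLDN3 end lower on toyocamycin at 72 h, and CLDN1, CLDN15 and CLDN6 end higher.

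Expressed members also moved with time in the DMSO arm, in a comparison added after the values were seen. Between 2 and 72 h in DMSO, 12 of the 19 expressed members rose and 1 fell, against 12.7% and 12.3% of expressed genes. Over the 36 tested members 16 rose and 3 fell, against 10.2% and 11.4% of all genes tested. The rises were largest for KRT81 (4.43), KRT16 (4.17), KRT14 (3.315), KRT80 (3.17) and KRT86 (2.84) on the log2 scale. They were smaller for the simple pair, at 1.11 for KRT8 and 1.45 for KRT18. KRT10 was the member that fell (-0.61 ± 0.19, edgeR adjusted p = 0.04).

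Within the toyocamycin arm, 12 of the 19 fell and 6 rose from 2 to 72 h, against 52.0% and 35.3% of expressed genes, and over the 30 members that passed through a DMSO library 16 fell and 9 rose, against 40.8% and 46.5% of all genes tested. KRT13, an intermediate member, fell most (-5.63). KRT19 (-4.29), KRT18 (-3.86), KRT5 (-3.82) and KRT8 (-3.05) fell most among the expressed members on the log2 scale. CLDN1 rose by 3.67, CLDN15 by 3.28 and KRT86 by 4.17, and KRT80 rose by 3.47, close to its rise in DMSO. For KRT16, KRT14 and KRT81 the change within toyocamycin (-2.52, -2.39 and 1.10) was smaller in size than the difference between arms at 72 h (-6.40, -5.54 and -2.94). The 2 h groups hold 1 library of each batch and the 72 h groups are all of batch 1. The effect at 72 h minus the effect at 2 h was negative in 13 and positive in 5 of the 19 expressed members by the test of that difference (49.0% and 33.0% of expressed genes), and in 18 and 7 of the 30 that passed through a DMSO library (38.1% and 38.0% of all genes tested). With batch as a term in the fit of all 17 libraries, 12 rose and 2 fell in DMSO.

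**Figure D3:**
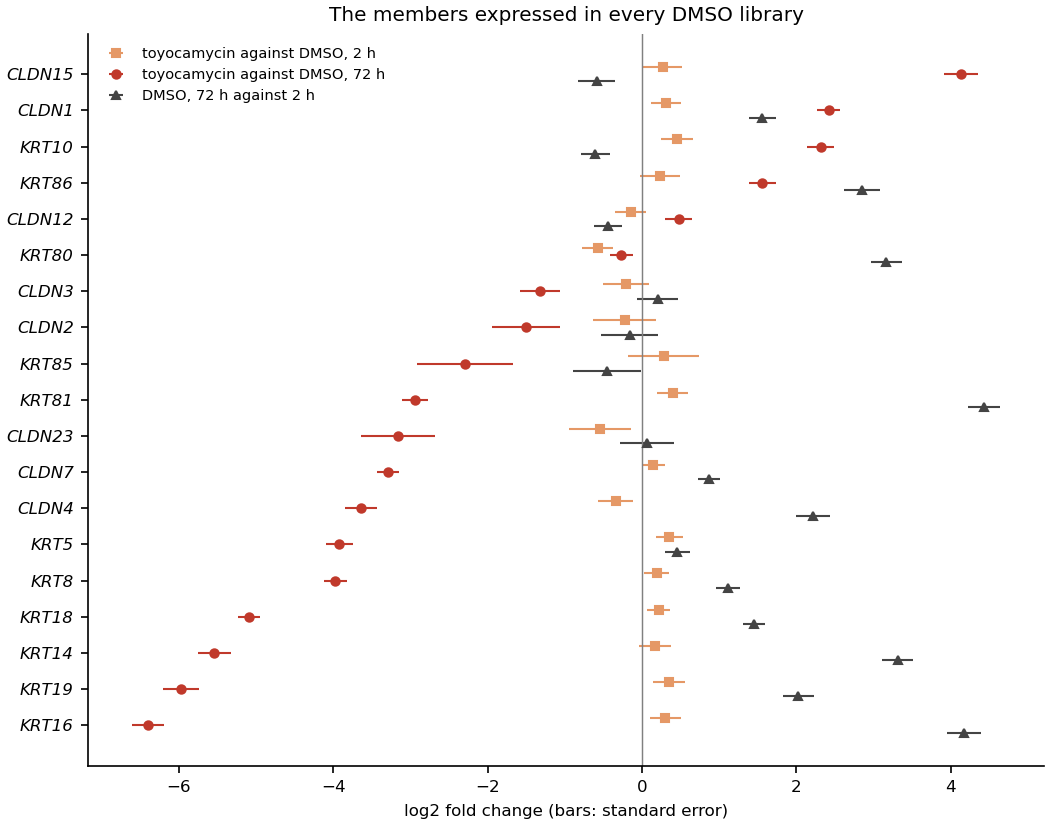
Log2 fold changes (points) and standard errors (bars) of the 19 expressed members for toyocamycin against DMSO at 2 h (orange squares) and 72 h (red circles), and for DMSO at 72 h against 2 h (grey triangles). At 2 h the points stay near 0, at 72 h 13 members are called lower and 5 higher, and the DMSO arm itself rose in 12.

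Among silent members, at least 10 counts in each toyocamycin library of 72 h were found for 2 of the 35 silent members, CLDN19 and KRT28, and for 10.6% of all 4991 silent genes. The next member, KRT12, had 7, 6 and 5 counts there, and the lower of the pair, KRT28, had 36, 41 and 59. Over toyocamycin libraries of 72 h, between 6 and 8 of the 35 silent members had at least 3 counts (17.1% to 22.9%), against 31.4% to 34.6% of all silent genes, while no DMSO library could by the rule. At 48 h the shares were 17.1% and 26.1%, at 24 h 14.3% and 10.1%, and at 2 h at most 5.71% and 3.27%. Replicate 2 at 10 h stood apart from all of these, and no silent member except CLDN19, KRT28, KRT2 and CLDN11 had more than 11 counts in it.

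**Figure D4:**
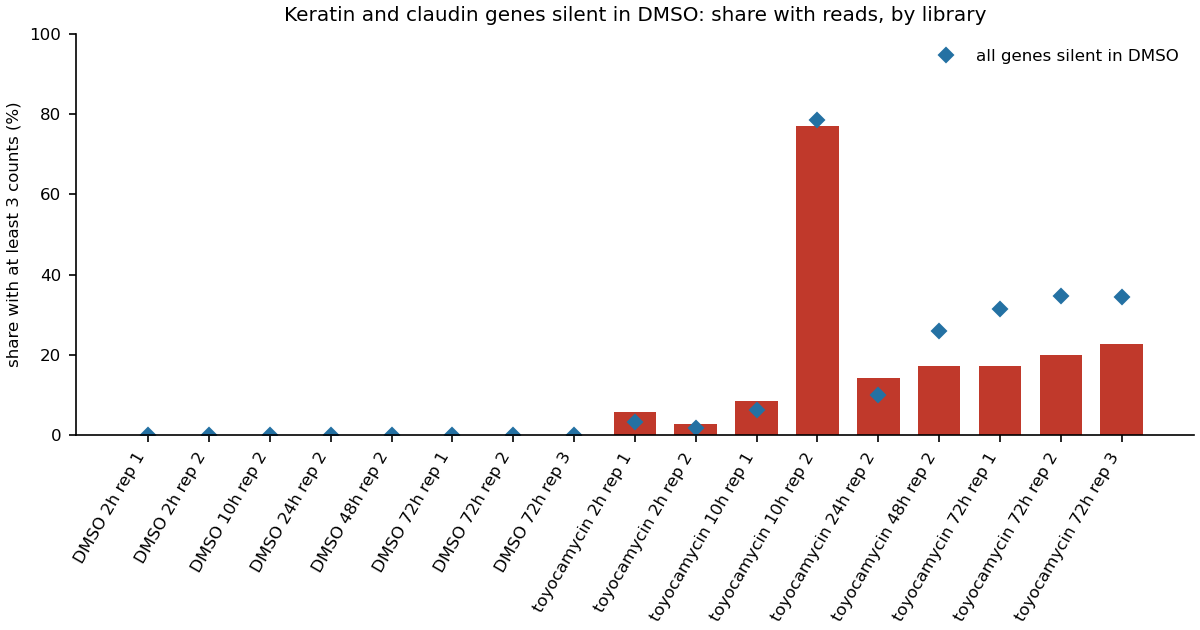
Share (%) of the 35 silent members with at least 3 counts in each library (bars, DMSO in grey and toyocamycin in red) and the same share over all 4991 genes silent in DMSO (blue diamonds). DMSO libraries are at 0 by the rule, toyocamycin libraries of 72 h reach 17.1% to 22.9% for the members, and replicate 2 of 10 h reaches 77.1%.

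CLDN19 (chr1:42733093-42740254, minus strand), a claudin known from kidney and eye, had reads on toyocamycin at every time. Its counts in DMSO were 0 at 2, 10, 24 and 48 h and 2, 2 and 0 at 72 h. On toyocamycin they were 6 and 2 after 2 h, 13 and 18 after 10 h, 29 after 24 h, 92 after 48 h and 202, 275 and 212 after 72 h. Summed over libraries at 72 h, 689 reads stood against 4, a ratio of 345 after scaling (95% exact interval 134 to 1269, which covers counting error only). Against a floor of 3 counts per DMSO library, its level was at least 10.6-fold higher after 10 h (7.33-fold without replicate 2), 17.1-fold after 24 h and 51.8-fold after 48 h. Since CLDN19 was chosen for its gain, these values carry no test. Of the genes on either side, P3H1 (6.08 kb upstream) had 25.02 CPM in DMSO and 24.6 on toyocamycin at 72 h (means of 3 libraries), and YBX1 (29.3 kb downstream) was lower, at 1174 and 721.

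KRT28 (chr17:40792196-40799959, minus strand), a type I keratin of the inner root sheath of hair, had 0 counts in all 8 DMSO libraries. On toyocamycin it had 2 and 0 counts after 2 h, 9 and 12 after 10 h, 30 after 24 h, 26 after 48 h and 36, 41 and 59 after 72 h. Against the floor it was at least 17.7-fold higher at 24 h and 30.3-fold at 72 h. KRT28 is the next gene downstream of KRT10 on the same strand, 18.2 kb away, and KRT10 also rose, while KRT27, a further 9.65 kb downstream, had 6, 3 and 2 counts at 72 h. Farther along, KRT26 had 2, 1 and 1 and KRT25 had 0 in each. The other 33 silent members had at most 8 counts in any toyocamycin library of 72 h, which was the value of KRT2 and of KRT6B in replicate 3.

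**Figure D5:**
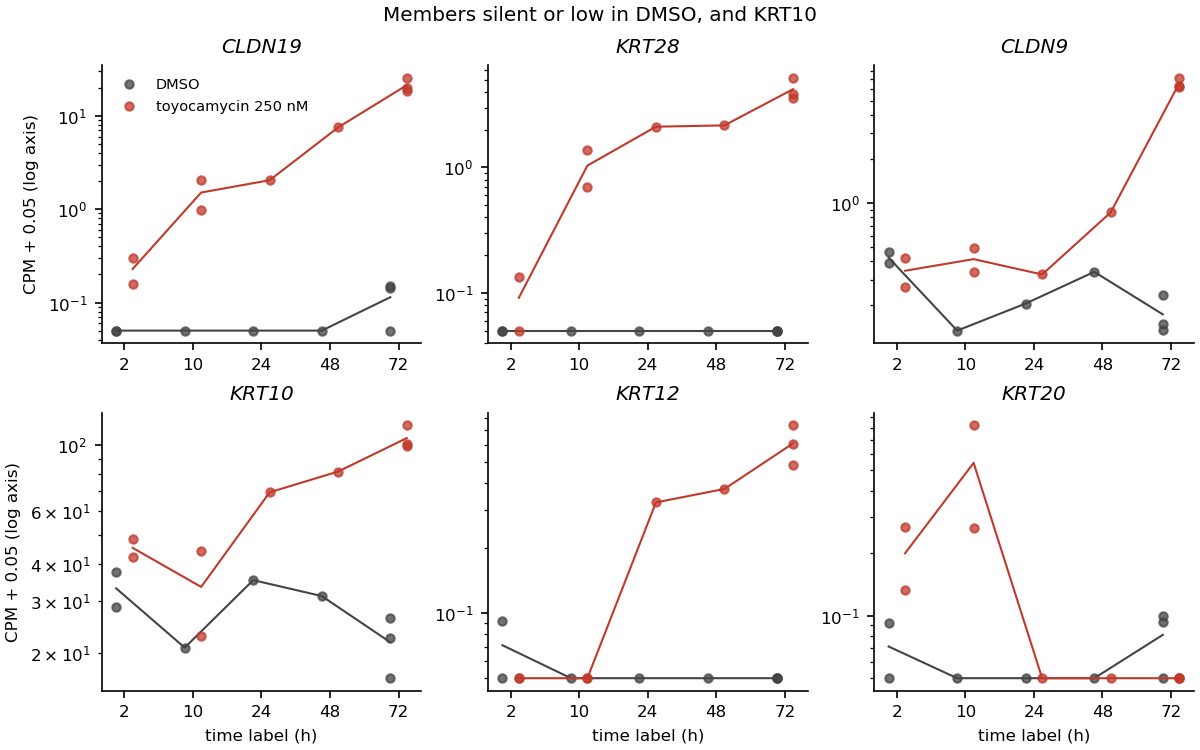
Levels of CLDN19, KRT28, CLDN9, KRT10, KRT12 and KRT20 by the time label (h, labels equally spaced), as CPM + 0.05 on a log axis, so that 0 counts plot at 0.05, with DMSO in grey and 250 nM toyocamycin in red. CLDN19 lies above the lowest level in every toyocamycin library and KRT28 in every one from 10 h on, and KRT20 does not at 24, 48 or 72 h.

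Other genes of the same structures were described by lists, which were set with earlier results of these data known. Of 11 tested desmosome genes 7 were lower and 4 higher at 72 h, against 41.9% lower and 47.0% higher over all genes tested, with JUP, the plakoglobin that links cadherins to keratin, at 542 ± 78.6 CPM in DMSO and 10.6 ± 0.804 on toyocamycin (SD, n = 3; log2 fold change -5.65). DSP, the desmoplakin that anchors keratin, stood at 1291 ± 40.4 CPM in DMSO and 752 ± 51.2 on toyocamycin. Of 10 adherens junction genes 8 were lower and 2 higher, among them CDH1 (E-cadherin, -3.47). Of 16 tight junction genes other than claudins 11 were lower and 3 higher, with TJP1 (ZO-1) at -1.54 and PARD6B, a polarity protein, at 4.12. Of 12 keratin linkers and partners 5 were lower and 3 higher, with PPL (periplakin) at -5.80, and of 10 other intermediate filament genes 5 were lower, with LMNA (lamin A) at -3.06, and 5 higher. Of 5 tested cornified envelope genes 3 were lower and 2 higher. Among the genes called higher in these lists, PKP1, DSC3, GFAP, PRPH, NEFL and SYNM had at most 8 counts in any DMSO library. They passed the filter only through toyocamycin libraries, so their values are a description with no test.

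Of 10 tested gut epithelial markers 5 were lower at 72 h, among them HNF4A (-4.21) and EPCAM (-1.38), and 4 were higher, namely CDX2 (0.61), LGR5 (2.77), CDH17 (2.93) and LGALS4 (6.66), beside 41.9% and 47.0% of all genes tested. Of 7 tested stratified markers 5 were lower and 2, PKP1 and S100A7, were higher. LGALS4, PKP1 and S100A7 had at most 8 counts in any DMSO library. They likewise passed the filter only through toyocamycin libraries, so their values carry no test. The summed level of 9 fibroblast markers was 0.511 to 1.19 CPM in DMSO and 3.05 to 22.3 on toyocamycin at 72 h, that of 6 endothelial markers 3.07 to 4.56 and 6.76 to 8.08, and that of 7 blood markers 0.0929 to 0.396 and 16.0 to 19.3. Their part in the results was not tested.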

How the data were processed

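PolyA RNA of YB5 cells was sequenced in 17 libraries (8 DMSO, 9 toyocamycin). The authors aligned reads to GRCh38 with STAR 2.7.5a and deposited counts per gene, with the strand setting not given in the sources used here. Times follow the labels, whose last one (72 h) is given as 96 h in the study's text. A column of the count table that matched no sample (1 column) was not used, and neither was the authors' table of fold changes and p-values. Genes were matched to GENCODE 44 symbols (19080 of 19141). Counts were tested with the edgeR 4.0.16 quasi-likelihood test in its edgeR 3 form, after filterByExpr and TMM scaling, with Benjamini-Hochberg adjustment over all genes and a threshold of 0.1. A fit of 14 libraries (14491 genes) served 2, 24, 48 and 72 h, and a fit of all 17 (16521 genes) served 10 h. Under this filter 1 library above the minimum is enough, so members that passed through toyocamycin libraries alone are given with no test. At 24 and 48 h each arm has 1 library, assumed to vary like the others. Replicate 2 of 2 and 10 h in both arms forms batch 2 (4 libraries). Same-numbered libraries of 2 h, which share a batch by the labels, deviated together (correlation of 0.285). Totals of 8735465 to 22121364 counts set the precision, and intervals and floors of 3 counts cover counting error only. The test was checked on simulated counts. Alternatives were DESeq2 1.42.0, other scalings, filters, batch, the replicate block and leaving out each replicate, in R 4.3.3. Genes named were the expressed, called and gaining members, with others added after their values were seen. Members and lists were chosen with earlier results of these data known. Intermediate filament, junction and marker lists were counted only. A gene of the stratified epithelium list is not reported here and was left out of its counts. Promoter sequences were read from RefSeq on GRCh38.p14.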

Additional observations from a re-analysis of the deposited data

Results flagged for a closer look

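The effect of toyocamycin at 72 h differed from its effect at 2 h in 18 members with a negative and 7 with a positive difference (the log2 fold change at 72 h minus that at 2 h, edgeR, adjusted p under 0.1), of the 30 that passed the filter on low counts through a DMSO library. Over all genes tested, which include genes that passed only through toyocamycin libraries, 38.1% were called negative and 38.0% positive. Over expressed genes these shares were 49.0% and 33.0%. The negative differences were those of KRT13 (-7.39), KRT16 (-6.70), KRT19 (-6.32), KRT14 (-5.71), KRT18 (-5.31), KRT5 (-4.28), KRT8 (-4.16), KRT9 (-3.43), CLDN7 (-3.43), KRT81 (-3.34), CLDN4 (-3.30), CLDN23 (-2.61), KRT85 (-2.57), KRT15 (-2.32), KRT6A (-2.13), KRT31 (-1.79), CLDN2 (-1.28) and CLDN3 (-1.11). The positive differences were those of CLDN6 (9.38), CLDN15 (3.87), CLDN1 (2.11), KRT10 (1.86), KRT86 (1.32), KRT17 (1.24) and CLDN12 (0.62). With the replicate block, which pairs the libraries of 2 h, the call of CLDN2 was lost (-1.26, edgeR adjusted p = 0.12). Leaving out 1 replicate gave -1.57 to -0.55 for CLDN3, -1.64 to -0.70 for CLDN2 and -2.42 to -1.23 for KRT31. The calls of CLDN3, CLDN2 and KRT31 were not kept under every alternative run. Scaling on mitochondrially encoded genes ended the calls of KRT10, KRT17, KRT86 and CLDN1 and turned the sign of CLDN12 (-0.34). KRT82 (6.35), CLDN9 (5.98) and KRT74 (4.63) passed the filter only through toyocamycin libraries, as did CLDN19 and KRT28, so these values are a description with no test. KRT81 and KRT86, near copies of one another, had opposite signs.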

How the results depend on the processing

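The 13 lower calls among expressed members at 72 h stayed within 1.5 times under all 17 alternatives run, as did the 12 higher calls of DMSO at 72 h against 2 h under all 20. Higher calls among expressed members at 72 h went from 5 to 3 with scaling on mitochondrially encoded genes. Over all tested members at 72 h, 14 higher calls became 8 with that scaling, 28 with no filter on low counts and 5 with at least 10 counts in every library, and 18 lower calls became 10 with the last. The lower call of DMSO at 72 h against 2 h became 3 with library size alone, 0 with mitochondrial scaling or the other set of libraries, and 2 with no filter, with at least 10 counts or with batch as a term, and was 1 to 2 when 1 replicate was left out (2 without replicate 2 of DMSO at 2 h). At 2 h, the 1 higher call became 0 with mitochondrial scaling, the edgeR 4 test, at least 10 counts, an adjusted p under 0.05, batch as a term or the other set of libraries, and was 0 to 1 with 1 replicate left out. Lower calls at 2 h went from 0 to 1 with library size alone and were 0 to 2 with 1 replicate left out (2 without replicate 2 of DMSO). Replicate numbers mark batches at 2 h, and with the replicate block 2 members were higher and 1 lower there; at 72 h the same numbers did not deviate together (correlations of -0.11, 0.05 and -0.09), and the block moved no count there by over 1.5 times, though KRT80 was called lower with it (-0.27, edgeR adjusted p = 0.061). The members called at 2 h with the block include KRT10 and KRT80, and it changed no other call of a named member than that of CLDN2 in the difference between 72 and 2 h. At 10 h, 19 higher calls became 6 with mitochondrial scaling, 12 with at least 10 counts, 36 with batch as a term and 11 with the other set of libraries, and were 20 to 41 with 1 replicate left out (41 without replicate 1 of toyocamycin), while 3 lower calls became 1 with the other set of libraries. At 24 h, 19 higher calls became 12 with library size alone, 3 with mitochondrial scaling and 10 with at least 10 counts, and 4 lower calls became 7 and 10 with the first and second of these. At 48 h, 15 higher calls became 5 with mitochondrial scaling and 7 with at least 10 counts, and 10 lower calls became 6 with the latter. Requiring 0 counts in every DMSO library left 19 of the 35 silent members. The cause of these changes was not tested, except that a count minimum tests fewer members by construction.

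Mitochondrial scaling ended the calls of KRT86, KRT17, KRT7 and CLDN12 at 72 h. The calls it ended at 10 h included those of KRT8, KRT18, KRT19, KRT86, CLDN4, CLDN7 and CLDN15, among others. Signs turned in small effects. At 2 h, leaving out 1 replicate gave both signs for KRT31 (-0.80 to 0.13), CLDN15 (-0.043 to 0.69), KRT85 (-0.11 to 0.61), KRT7 (-0.059 to 1.12), CLDN12 (-0.34 to 0.069), CLDN3 (-0.77 to 0.26), CLDN2 (-0.81 to 0.16), KRT74 (-2.01 to 2.95), KRT9 (-0.37 to 0.89), CLDN6 (-0.53 to 1.32), CLDN4 (-0.68 to 0.11), KRT6A (-0.15 to 1.42), CLDN9 (-0.76 to 0.0062) and CLDN23 (-1.23 to 0.065), and mitochondrial scaling gave -0.0044 for KRT14. At 10 h, mitochondrial scaling gave -0.15 for CLDN15, -0.37 for KRT19, -0.62 for CLDN7, -0.050 for CLDN6, -0.36 for KRT10 and -0.018 for CLDN4. CLDN1 at 10 h became 0.17 with DESeq2 size factors, 0.17 with the DESeq2 Wald test and 0.084 with at least 10 counts, and was -0.39 to 0.24 with 1 replicate left out. At 72 h, CLDN12 became -0.13 with library size alone and -0.57 with mitochondrial scaling, and KRT80 became 0.051 with DESeq2 size factors, 0.051 with its Wald test and 0.011 with at least 10 counts. For the difference between 72 and 2 h, mitochondrial scaling gave -0.34 for CLDN12, -0.59 for KRT80 and -0.076 for KRT3, and library size alone gave -0.23 for KRT80. Silent and low members rest on few reads, so a gain of a few counts was not detectable at this depth.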
